A study of Oryzias latipes with 7 samples.

Results

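A set of 104 probe sets of ovarian follicles was high only in the middle of the approach to spawning, at 23, 14 and 8 h before spawning, and low both before, at 47, 35 and 32 h, and after, at 2 h. The follicles came from medaka (Oryzias latipes), a freshwater teleost whose females spawn nearly every day. Each follicle consists of 1 oocyte enclosed by layers of granulosa and theca cells. At every sampling time, follicles of the 2 largest sizes were taken from the ovary. For each stage, 100 follicles were pooled and their total RNA was labelled with Cy3 and hybridised to a 1-colour NimbleGen expression array, with 1 array at each of the 7 time points. No genotype, strain or treatment distinguished the samples in the labels, where only the time before spawning differed. The array numbers also differed, with 6 digits at 47, 23, 14 and 2 h and 8 digits at 35, 32 and 8 h.

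The members were chosen from the measured values themselves. Of 63698 probe sets, the 47773 whose mean log2 intensity over the 7 arrays lay above the 25th percentile (6.24, an intensity of 75.8) were kept. The 7 log2 values of each probe set were then sorted, and the largest gap between neighbouring values was found. A probe set was a member when that gap was 2 or more, which is a 4-fold step, and the arrays above it were exactly those at 23, 14 and 8 h. This took in 0.218% of the probe sets kept. Because the rule reads all 7 arrays and no time point has a replicate, every value below is a description and none is tested. All 104 passed the filter by the rule, and without the filter 1 further probe set met the rest of the rule, with a mean log2 value of 6.07 against a lowest member mean of 6.34.

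In medaka the hours covered by these arrays take the follicle from late yolk deposition to release of the egg. A surge of luteinizing hormone acts on the follicle cells, which make a progestin that makes the oocyte resume meiosis. The oocyte's nuclear envelope then breaks down, and the follicle wall is opened by proteases at ovulation. The series title names late vitellogenesis, oocyte maturation and the stages before ovulation. The files used here pair no probe set identifier with a gene, and 0 of them matched the RefSeq gene table, so no gene, pathway or cell type marker could be assigned to a member. The members are therefore described by their courses, and 4 are given by identifier. In RNA of whole follicles, fewer cells of a type and less RNA per cell cannot be told apart.

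The deposited sources differed on the time of 5 of the 7 arrays. The times used here follow the per-array files with their stage labels. In the series table the same intensities stood under other samples, and there the 3 arrays on which all 104 members were high belonged to 35, 32 and 8 h rather than to 23, 14 and 8 h. Taking times from the series table, 0 probe sets met the rule. Which source gives the right times was not tested. For the array called 2 h here, 1 label field gives 5 h.

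The transient group went through a low, a high and a second low state. The median intensity of the 104 probe sets was 144, 103 and 240.5 at 47, 35 and 32 h. It was then 2821, 5379 and 3721 at 23, 14 and 8 h, and 164 at 2 h. Each of the 3 middle medians was thus more than 10 times each of the 4 outer ones. Relative to all probe sets on the same array, the median member stood at percentile 28.9 to 38.3 at 47, 35, 32 and 2 h, and at percentiles 71.6, 82.8 and 77.4 at 23, 14 and 8 h. The mean over 23, 14 and 8 h exceeded the mean over the other 4 arrays by a median of 4.37 on the log2 scale (20.7-fold), with a range over members from 2.76 to 8.12. The gap itself, from the lowest of the 3 high arrays to the highest of the 4 low ones, had a median of 2.75 and reached 6.43. It was under 2.5 in 37 members, 3 or more in 39 and 4 or more in 13.

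**Figure D1:**
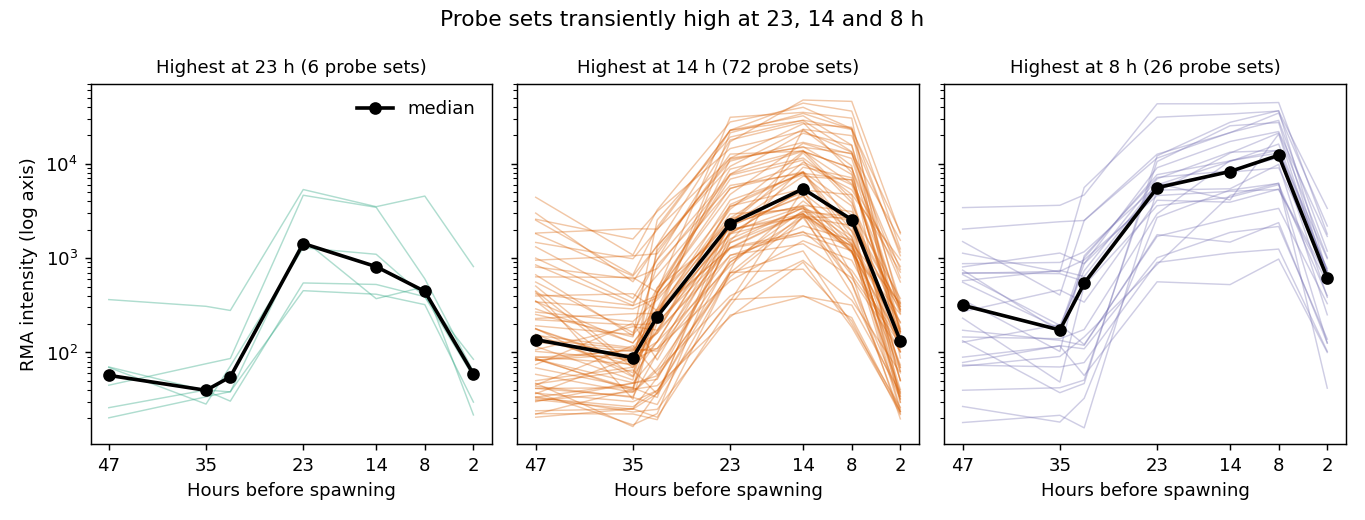
RMA intensity (log axis) of each of the 104 probe sets at 47, 35, 32, 23, 14, 8 and 2 h before spawning, 1 line per probe set, split by the array of its highest level; the black line is the median. The 3 panels hold 6, 72 and 26 probe sets, and in each the median is low at 47, 35, 32 and 2 h.

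The nearest measure of the spread between arrays is the pair at 35 and 32 h, the closest in time by the stage labels. Between these, the log2 difference stayed below 1.02 in 95% of the probe sets kept, although this pair also includes any real change over 3 h. In the series table the same 2 arrays stand under 2 and 14 h, which are not neighbouring times. Both have 8-digit array numbers, as at 8 h, while those at 47, 23, 14 and 2 h have 6 digits. The pair thus holds no difference between these 2 kinds of array. The members themselves differed more between these 2 arrays, by -1.30 to 4.58 for 32 h minus 35 h, with a median of 0.63. That every gap exceeded 1.02 follows from the rule. At the threshold, the 3 smallest gaps among members were 2.05, 2.06 and 2.06, and the 3 largest among probe sets with the same split but left out were 1.99974, 1.97 and 1.97. A further 136 probe sets had this split as their largest gap with a size from 1 to 2, and 7 had a gap of 2 or more at this split but a larger one elsewhere.

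Intensities differed widely among members in both states. An intensity also depends on the probes, so these ranges are no ranking of transcript abundance. At 14 h the members ran from 372 to 47383, and 40 of the 104 lay above the 90th percentile of that array. At 23 h 23 members and at 8 h 34 members lay above the 90th percentile, and 20 did so on all 3 arrays. At 2 h the members ran from 19.8 to 3366, with none above the 90th percentile and 31 below the 25th. The arrays at 47, 35 and 32 h had 28, 40 and 26 members below the 25th percentile. In 20 members all 4 low arrays lay there, with medians of 29.8 to 38.0 on those arrays. No detection call was used, and whether intensities that low measure the transcript was not tested. For the 20 members low on all 4 arrays, and the 20 above the 90th percentile on all 3, no share over all probe sets kept is given.

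At the start of the high period, all 104 members were at least 4-fold higher at 23 h than at 32 h, which the rule fixes; among all probe sets kept 2.07% were. The median difference was 3.42 on the log2 scale, or 3.41 relative to the median of all probe sets kept, and it ran from 2.06 to 8.37. At the end, all 104 were at least 4-fold lower at 2 h than at 8 h, again fixed by the rule, against 3.86% of all probe sets kept. That difference had a median of -4.18, or -4.29 relative to all probe sets kept, and ran from -8.32 to -2.11. The step at the end was the larger one in 70 members and the step at the start in 34. With each array centred on the median of all probe sets kept, the step at the end was the larger one in 77. No share over all probe sets kept is given for the 70, 34 and 77, so they are not shown to be particular to the members. Across the 104 members the 2 differences correlated at Pearson r = -0.36, a description over probe sets that share the same 4 arrays. Both steps set an array with a 6-digit number (23 and 2 h) against one with an 8-digit number (32 and 8 h). A probe set's difference between the 2 kinds of array would enlarge 1 step and shrink the other, and would enter this correlation. Centring arrays on a median does not remove such a difference, and its size was not tested.

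**Figure D2:**
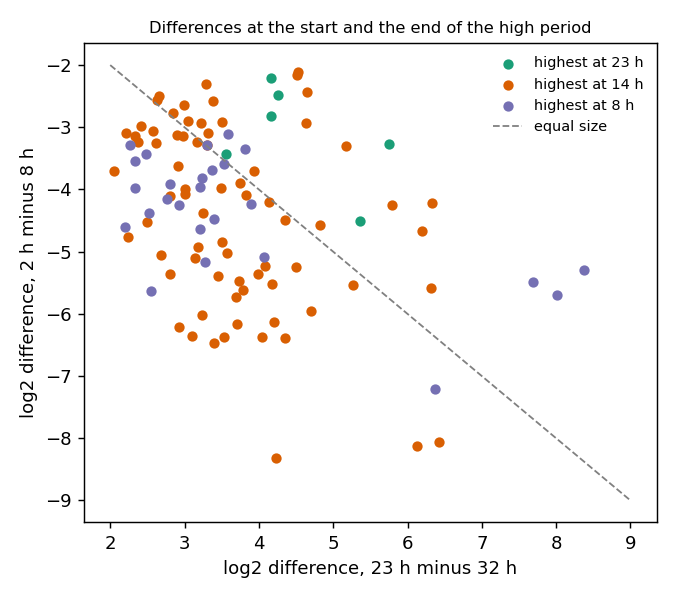
For each of the 104 probe sets, the log2 difference of 23 h minus 32 h (horizontal) and of 2 h minus 8 h (vertical), coloured by the array of the highest level; the dashed line marks steps of equal size. In 70 probe sets, those below the line, the step at the end is the larger one. No share over all probe sets kept is given for this count. Each step sets a 6-digit against an 8-digit array number, so a difference between these kinds of array would enlarge 1 step and shrink the other.

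The largest differences at the start belonged to K_OLAT0000S00022587 and K_OLAT0000S00014196. K_OLAT0000S00022587 had intensities of 18.1, 21.6 and 15.9 at 47, 35 and 32 h, then 5262, 5433 and 9851 at 23, 14 and 8 h, and 251 at 2 h. It was 8.37 higher on the log2 scale at 23 h than at 32 h, but its 3 early values lay at percentiles 0.2 to 3.2 of their arrays, so the size of that difference, and its rank, rest on intensities for which no detection was tested. K_OLAT0000S00014196 had 133, 37.5 and 46.9 at 47, 35 and 32 h, then 12133, 27493 and 36602 at 23, 14 and 8 h, and 702 at 2 h. Its difference between 23 h and 32 h was 8.02. Both were highest at 8 h, and both were still above all 3 early values at 2 h, by 3.77 and 3.51 over the early mean. The 3.77 rests on the same early values at percentiles 0.2 to 3.2. The 8.02 and 3.51 also rest on low values, at percentiles 31.7, 14.9 and 19.1 at 47, 35 and 32 h.

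The largest differences at the end belonged to K_OLAT0000S00012853 and K_OLAT0000S00006869. K_OLAT0000S00012853 had 32.9, 26.6 and 39.4 at 47, 35 and 32 h, then 737, 23141 and 9514 at 23, 14 and 8 h, and 29.8 at 2 h. Its log2 difference of 2 h minus 8 h was -8.32, against a 2 h value at percentile 11.4 of its array, and it differed by 4.97 between 23 h and 14 h, the widest range among the 3 high arrays of any member. K_OLAT0000S00006869 had 116, 51.1 and 445 at 47, 35 and 32 h, then 31099, 35064 and 30427 at 23, 14 and 8 h, and 110 at 2 h. Its 3 high values differed by only 0.20 on the log2 scale, and its log2 difference of 2 h minus 8 h was -8.12. Of these 2 probe sets, the first was thus highest over a narrower part of the same period.

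**Figure D3:**
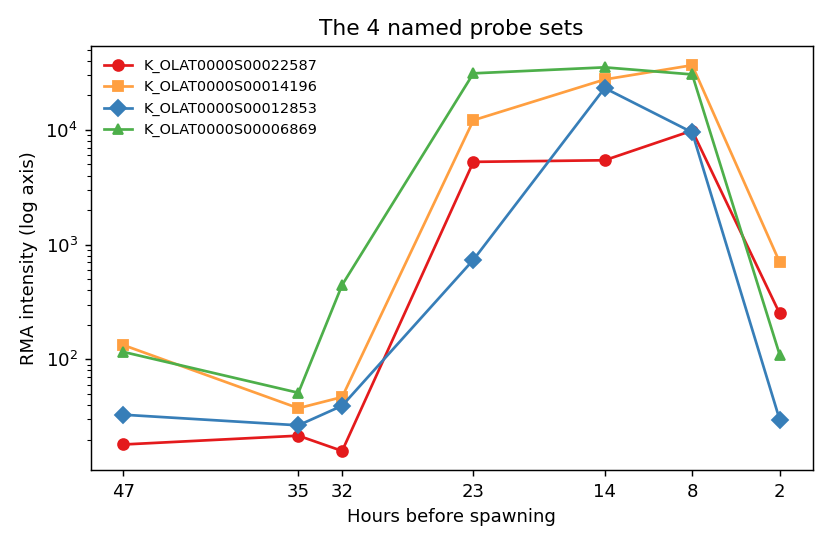
RMA intensity (log axis) of the 4 named probe sets against hours before spawning. All 4 exceed 700 at 23, 14 and 8 h. K_OLAT0000S00022587 and K_OLAT0000S00014196 stand at 251 and 702 at 2 h, K_OLAT0000S00012853 and K_OLAT0000S00006869 at 29.8 and 110.

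The member with the largest gap, 6.43, had 86.7, 39.2 and 247 at 47, 35 and 32 h, then 21282, 34191 and 23329 at 23, 14 and 8 h, and 87.4 at 2 h. The member with the highest mean over the 3 high arrays also had the smallest range across them, with 43228, 43184 and 44583 at 23, 14 and 8 h. Whether signals that bright are compressed was not tested. Outside the period it still had 3430, 3631 and 4674 at 47, 35 and 32 h and 1802 at 2 h. The member with the lowest mean over the 3 high arrays had 249, 393 and 318 at 23, 14 and 8 h, against 23.4 to 37.4 on the other 4 arrays.

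Within the high period 14 h was the commonest time of the highest level. Of the members, 72 (69.2%) were highest then, 26 (25%) were highest at 8 h and 6 (5.77%) at 23 h. In 93 members the level at 14 h was above that at 23 h, and in 76 it was above that at 8 h. No share over all probe sets kept is given for these counts. The log2 difference of 8 h minus 14 h had a median of -0.11 over all probe sets kept. With arrays centred on the median of all probe sets kept, 8 h was above 14 h in 32 members, against 28 without. By at least 4-fold, 11 members were higher and 1 lower at 14 h than at 23 h, where all probe sets kept gave 1.15% and 0.839%. In the same way 1 member was higher and 12 were lower at 8 h than at 14 h, against 3.02% and 3.41% of all probe sets kept. The time of the highest level was often not well separated. In 82 members the highest level exceeded the next by no more than the 1.02 given above, and the lead was larger in 20 of the 72 members highest at 14 h, 1 of the 26 highest at 8 h and 1 of the 6 highest at 23 h. That 1.02 came from 2 arrays with 8-digit numbers. A lead between 8 h (8 digits) and 14 or 23 h (6 digits) can hold a further difference that it does not measure.

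The shape of the high period ranged from a plateau to a spike. In 36 members the 3 high arrays lay within 2-fold of one another, in 44 they spanned 2-fold to 4-fold, and in 24 they spanned 4-fold or more. No share over all probe sets kept is given for these counts or for the 21 below. A 2-fold span is close to the log2 difference of 1.02 given above. The 8 h array also has an 8-digit number, while those at 23 and 14 h have 6 digits. The sharpest spike at 14 h had 349 at 23 h, 5348 at 14 h and 678 at 8 h, against 19.8 to 39.7 on the low arrays. The member with the largest lead at 8 h had 6191 at 23 h, 4136 at 14 h and 20673 at 8 h, against 576 to 741 on the low arrays. The member with the largest lead at 23 h had 1570 at 23 h, 372 at 14 h and 498 at 8 h, against 21.8 to 40.1 on the low arrays. The 72 members highest at 14 h had medians of 2314, 5425 and 2556 at 23, 14 and 8 h. The 26 highest at 8 h had medians of 5580, 8280 and 12302, and in 21 of them the level was higher at each successive time of the 3. The 6 highest at 23 h had medians of 1429, 812 and 444.

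Before the high period, the level was not flat in every member. It was at least 4-fold higher at 32 h than at 35 h in 18 members (17.3%), where 0.406% of all probe sets kept were, and at least 4-fold lower in 0, where 0.366% were. It was at least 4-fold lower at 35 h than at 47 h in 9 (8.65%), where 0.551% of all probe sets kept were. Both held in 5 members, which were thus lower at 35 h than at both neighbouring times by the stage labels. In the series table the arrays called 35 and 32 h here stand under 2 and 14 h. The difference between 47 h and 35 h also sets an array with a 6-digit number against one with an 8-digit number. The 35 h array was the lowest of all 7 in 44 members, and the 32 h array was the highest of the 4 low arrays in 47. No share over all probe sets kept is given for these counts or for the 5 members, so they are not shown to be particular to the group. Over the 18 members the median intensity was 242 at 47 h, 76.0 at 35 h and 677 at 32 h, and then 8254 at 23 h. Over the 9 members it was 74.2 at 35 h. At 35 h the member median was 6.68 on the log2 scale, against 10.6 over all probe sets kept. The shares over all probe sets kept are thus not matched in level, and whether intensities that low measure the transcript was not tested. The widest difference of 32 h minus 35 h in a member was 4.58 on the log2 scale. That member had 180 at 47 h, 55.2 at 35 h and 1323 at 32 h, and then 10668, 16873 and 12700 at 23, 14 and 8 h and 757 at 2 h. All arrays before 23 h count as low under the rule, so a member could differ among them by any amount that left the gap at 23 h the largest.

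After the high period the rule requires the 2 h array to be low, but not how its level compares with the early arrays. The difference of 2 h minus the mean of 47, 35 and 32 h had a median of 0.02 on the log2 scale, with quartiles of -0.55 and 0.75. It was within 2-fold in 69 members (66.3%), where 74.8% of all probe sets kept were. In 20 members (19.2%) the 2 h level was at least 2-fold above the early mean, against 12.0% of all probe sets kept, and in 15 (14.4%) at least 2-fold below, against 13.3%. Of these, 4 were at least 4-fold above and 6 at least 4-fold below. The 2 h value lay above all 3 early values in 28 members, below all 3 in 28 and among them in 48. For these counts, and for the 4 and 6 members at 4-fold, no share over all probe sets kept is given. They are thus not shown to be particular to the members. By at least 4-fold, 4 members were higher and 10 lower at 2 h than at 32 h, where all probe sets kept gave 4.95% and 4.2%. The early mean also joins arrays that differed. The median log2 difference of 2 h minus 47, 35 and 32 h was 0.007, 0.241 and -0.385. The arrays at 2 and 47 h have 6-digit numbers, and those at 35 and 32 h have 8-digit numbers. At 2 h the member median was 7.35 on the log2 scale, against 10.6 over all probe sets kept. The shares over all probe sets kept are thus not matched in level.

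The 2 ends of that range were far apart. The member furthest above its early level had 607.5 at 2 h, against 39.8, 42.3 and 51.0 at 47, 35 and 32 h. The member furthest below had 289 at 2 h, against 4416, 1080 and 3249 at 47, 35 and 32 h, and it had been at 27749, 39700 and 23579 at 23, 14 and 8 h. Of the 26 members highest at 8 h, 20 stood above their early mean at 2 h, with a median difference of 0.57. Of the 72 highest at 14 h, 29 did, with a median of -0.24. Whether these differ was not tested, because the same arrays chose the members. No share over all probe sets kept is given beside the 20 and the 29. The arrays that part these 2 groups also have numbers of 8 digits (8 h) and 6 digits (14 h).

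**Figure D4:**
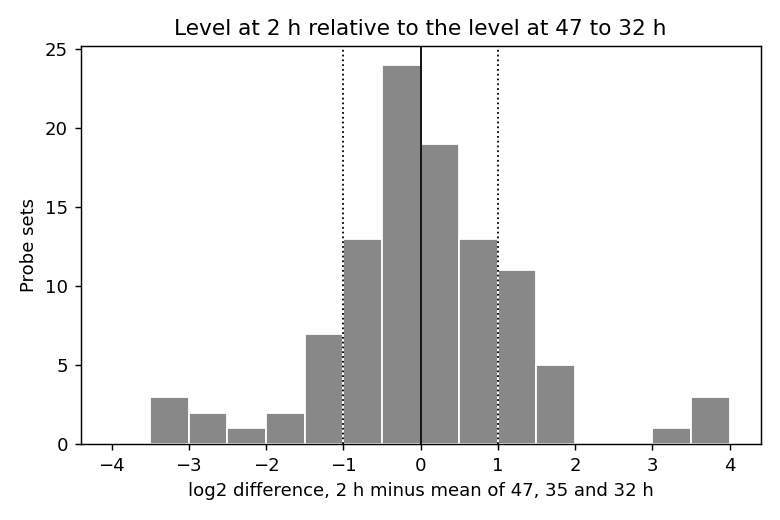
Number of probe sets (bars, width 0.5) by the log2 difference of 2 h minus the mean of 47, 35 and 32 h; the solid line marks 0 and the dotted lines a 2-fold difference. Of 104 probe sets, 69 lie between the dotted lines, 20 above them and 15 below.

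By the times used here, some arrays were 24 h apart and so matched in time of day. In the series table the arrays called 23 and 32 h here stand under 35 and 14 h. By those times the 2 pairs below would not be matched in time of day. All 104 members were at least 4-fold higher at 23 h than at 47 h, as the rule requires, against 1.57% of all probe sets kept, with a median difference of 3.76 on the log2 scale. All 104 were likewise higher at 8 h than at 32 h, against 3.55%, with a median of 3.52. These pairs have no array in common, and each lies within 1 of the 2 array-number series, one with numbers of 6 digits (47, 23, 14 and 2 h) and one with numbers of 8 digits (35, 32 and 8 h). Within the 6-digit series the mean of 23 and 14 h exceeded the mean of 47 and 2 h by a median of 4.36, with a range of 2.52 to 8.28. Within the 8-digit series 8 h exceeded the mean of 35 and 32 h by a median of 4.06, with a range of 2.13 to 9.77. Each series holds high and low arrays, and the rule fixes that these differences are above 2 in every member, so they give sizes only.

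**Figure D5:**
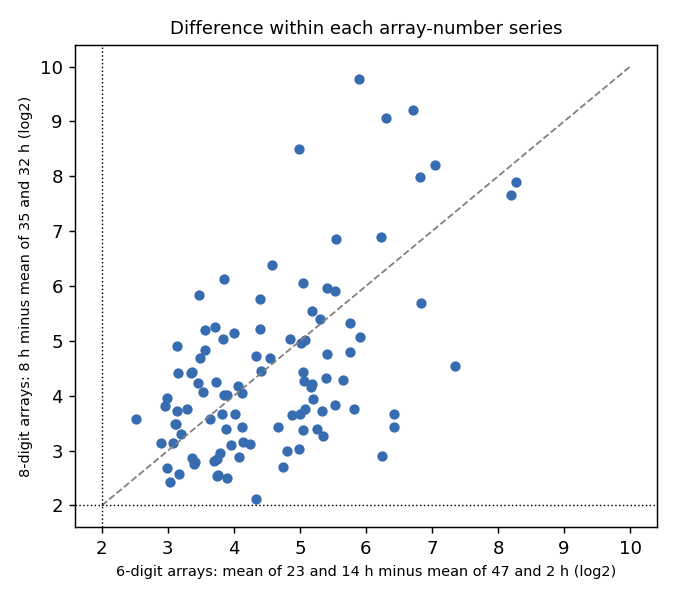
For each of the 104 probe sets, the log2 difference of high minus low arrays within the 6-digit series (horizontal, 23 and 14 h minus 47 and 2 h) and within the 8-digit series (vertical, 8 h minus 35 and 32 h); the dashed line marks equality and the dotted lines a 4-fold difference. The rule places all points beyond 4-fold on both axes, so the plot shows the sizes only, with medians of 4.36 and 4.06.

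The courses of single members were alike, as the rule makes them. Over the 5356 pairs of members the Pearson correlation across the 7 arrays had a median of 0.94 and a minimum of 0.69. Few pairs matched in level as well, with 3 pairs within 0.5 on the log2 scale on every array. Of the 104 members 102 were summarised from 6 probes, 1 from 2 probes and 1 from a single probe. The identifiers have 2 forms whose meaning no source used here gives. The form starting with K_ made up 51 members (49%), where it made up 35.5% of the probe sets kept.

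Neighbouring groups set apart by the same rule show which part of the course differed. The 93 probe sets high from 23 h onward had medians of 4401, 10268 and 13508 at 23, 14 and 8 h and 6439 at 2 h, where the transient group had 164. The 44 probe sets high only at 23 and 14 h had medians of 1567 and 2203 at those times and 185 at 8 h. The 54 high only at 14 and 8 h had a median of 150 at 23 h, then 2757 at 14 h and 2541 at 8 h. These differences are what the rule used to part the groups, and no test of them was made.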

How the data were processed

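The authors deposited 1 file per array holding an intensity for every probe set, made by RMA per the submitters' processing notes, on a linear scale. As a method, RMA includes background correction, normalization across arrays and a summary over probes. Its version is not given in the sources used here, and neither are its settings. The deposited number of probes per probe set is given as other information in the same files. Array medians ran from 599 at 8 h to 703 at 47 h. They were 653, 643 and 599 at 35, 32 and 8 h, where array numbers have 8 digits. At 47, 23, 14 and 2 h, where they have 6 digits, the medians were 703, 698, 682 and 685. Every median of the 8-digit arrays thus lay below every median of the 6-digit arrays, and the reason was not tested. No detection call was used here, so a low intensity has no detection limit, and precision is limited by the number of arrays. Stage labels gave each array its time. The log2 of each intensity was taken with no further normalization, and the membership rule was applied as described, with Python 3.11.15, pandas 2.3.3 and numpy 2.4.6. The rule was checked on simulated data.

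The members and the alternatives were chosen with earlier results of these data known. Of the members, the 2 with the largest log2 difference of 23 h minus 32 h are named and, among the rest, the 2 with the largest drop from 8 h to 2 h; others were picked by rank after their values were seen. Gene lists and cell type markers needed gene names and were not applied. Sequences were not used here. Alternatives were the filter, centring, quantile normalization, an offset of 64, gaps of 1 and 3, the times of the series table, any gap at the split, and leaving out each array.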

Additional observations from a re-analysis of the deposited data

How the results depend on the processing

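No paired analysis was possible because each time point has 1 array. The group held 105 probe sets without the filter, 111 with arrays centred on their medians, 108 when quantile normalized, 82 using the offset of 64 and 111 with any gap of 2 or more at the split, sharing 104, 102, 103, 81 and 104 with the main 104. The filter at the 50th percentile left 50, with 1 highest at 23 h, 31 at 14 h and 18 at 8 h, and 9 in the opposite group, low at 23, 14 and 8 h. A gap of 1 gave 240 members (17 highest at 23 h, 163 at 14 h, 60 at 8 h; 81 opposite), with medians of 1.89 for the gap and 3.23 for the difference of high minus low arrays. A gap of 3 gave 39 (2, 29 and 8; 3 opposite), with medians of 3.37 and 5.32. The offset of 64 lowered the median difference of high minus low arrays to 4.01 and left 2 members highest at 23 h. Under the series table's times there were 0 members, so 0 at each time, and 3 in the opposite group. Leaving out 1 array gave 102 to 234 members, 7 to 40 of them highest at 23 h, 68 to 156 at 14 h and 25 to 89 at 8 h, with 18 to 139 in the opposite group. Membership was over 1.5 times the main count without the 23 h array (229), the 8 h array (196) or the 2 h array (234). Each of these drops a condition of the rule, and the filter and the largest gap were taken anew from the arrays left. Those groups kept 95, 98 and 103 of the 104. Over these 7 settings the median gap was 2.70 to 2.82, the median difference of high minus low arrays 3.87 to 4.36. The median of 2 h minus the early mean was -0.12 to 0.15 over the 6 of them that keep the 2 h array. In every setting that left members, 14 h held more highest levels than 8 h and 23 h where the 14 h array was kept. With 1 array per time point, differences among the 3 high arrays are limited by the spread of single arrays.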

Other observations

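The opposite course was rarer under the same rule. In 18 probe sets the arrays at 23, 14 and 8 h were the low ones, with median intensities of 140, 90.7 and 119, against 2410, 2358, 2928 and 2566 at 47, 35, 32 and 2 h. The lowest level fell at 14 h in 12 of the 18, and the gap had a median of 2.60 and reached 4.33.

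A further 155 probe sets outside the group had a course that correlated at 0.95 or more with the mean course of the 104 members. Of the 104 members, 73 reached the same value, but the mean course was made from these same members. The median range of the 155 over the 7 arrays was 2.04 on the log2 scale, and in 77 of the 155 it was under 2. The 155 probe sets were chosen by that likeness, which is a description over 7 arrays.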
